A study of Mus musculus with 4 samples.

Results

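The complement components examined in *Pich*-KO and *Pich*-WT LSK cells were 9 genes, *C1qa*, *C1qb*, *C1qc*, *C2*, *C3*, *C4b*, *C6*, *Cfp* and *C3ar1*, matched by gene name among the 39186 genes of the deposited table. All 9 were found. They were chosen by name with the difference of their normalized counts between the groups already known, so their fold changes are a description and carry no test. LSK cells lack lineage markers and carry Sca-1 and c-Kit, and hold the hematopoietic stem cells. RNA was taken from LSK cells sorted out of C57BL/6 fetal livers, with 2 *Pich*-KO and 2 *Pich*-WT samples. The *Pich*-KO embryos carried a small germline deletion in the second exon of the X-linked gene for PICH, a DNA translocase that coats ultrafine bridges in anaphase, in every cell of the body rather than in blood cells alone. The *Pich*-WT embryos were wild-type. The labels name neither the embryonic day nor whether a sample came from 1 embryo or from several. A p-value therefore measures only the spread between these samples, which may be technical within *Pich*-KO. The *Pich*-WT samples differed in sex by their reads on sex-linked genes, given below, and so came from different embryos.

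Complement is a cascade of proteins that tags microbes and dying cells. C1q, built from the chains of *C1qa*, *C1qb* and *C1qc*, recognises bound antibody and apoptotic cells and starts the classical pathway. C2 and C4 then form the enzyme that cleaves C3, properdin (*Cfp*) stabilises the corresponding enzyme of the alternative pathway, C6 is part of the pore that perforates membranes, and the receptor encoded by *C3ar1* senses the C3a fragment. Most circulating complement comes from hepatocytes, whereas C1q is made mainly by macrophages and dendritic cells, and properdin by myeloid cells.

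The samples held 14703215 to 20933919 reads assigned to genes. The PICH gene *Ercc6l* had 1142 and 1232 normalized counts in *Pich*-KO against 772 and 661 in *Pich*-WT. This mRNA was not lower in *Pich*-KO, so its level does not check the genotype labels. The cause of its level was not tested. *Pich*-WT sample 2 had 0 reads on Y-linked genes and 699 on *Xist*, while the other samples had 1607 to 2848 and 4 to 13. By these reads *Pich*-WT sample 2 was female and the other samples male, so the spread within *Pich*-WT includes sex. Without *Pich*-WT sample 2 the log2 fold changes given below were -4.65 for *C1qb*, -5.24 for *C1qc*, -5.66 for *C1qa*, -0.64 for *C2*, -0.47 for *C4b*, 0.25 for *C3*, -1.65 for *Cfp*, -2.85 for *C6* and -3.67 for *C3ar1*.

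The C1q genes showed the widest gap of the 9 components. *C1qb* had 387 and 379.7 normalized counts in *Pich*-KO samples 1 and 2 and 9681 and 10167 in *Pich*-WT samples 1 and 2. *C1qc* had 270.5 and 208 in *Pich*-KO against 8987 and 8414 in *Pich*-WT. *C1qa* had 73.1 and 68.2 in *Pich*-KO against 3625 and 3540 in *Pich*-WT. For all C1q genes both *Pich*-KO samples were far below both *Pich*-WT samples, and samples of a group lay close together. A normalized count is a read count divided by one size factor per sample. As means ± SD with n = 2 per group, these were 383 ± 5.32 against 9924 ± 343 for *C1qb*, 239 ± 44.2 against 8700.3 ± 405 for *C1qc*, and 70.6 ± 3.45 against 3583 ± 60.4 for *C1qa*. The *Pich*-WT mean was 25.9 times the *Pich*-KO mean for *C1qb*, 36.4 times for *C1qc* and 50.7 times for *C1qa*. The log2 fold changes of *Pich*-KO over *Pich*-WT, on the log2(normalized count + 1) scale, were -4.69, -5.19 and -5.65. In bulk RNA, fewer cells of a type and less RNA per cell cannot be told apart.

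**Figure D1:**
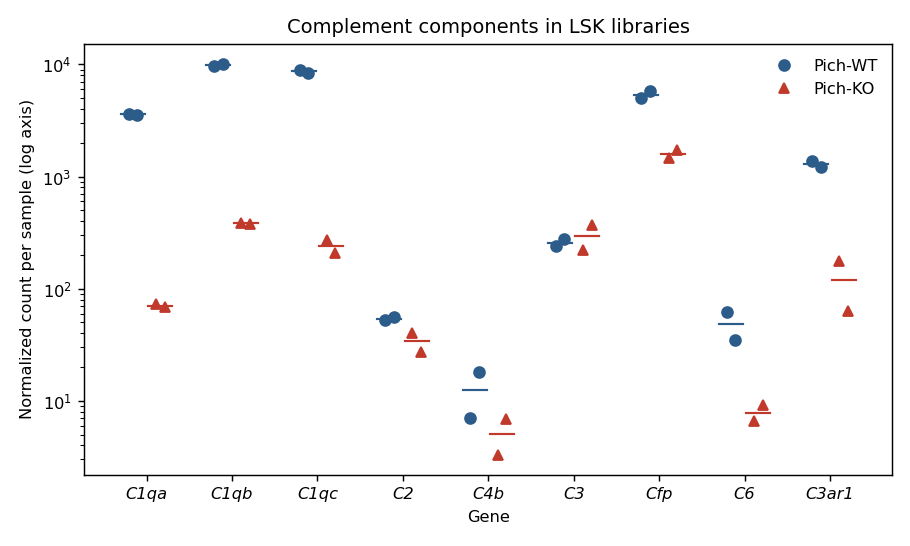
Normalized counts of the 9 complement components in each LSK sample, on a log axis, with circles for the 2 *Pich*-WT and triangles for the 2 *Pich*-KO samples and a bar at each group mean. The C1q genes lie furthest apart, from 70.6 to 383 in the *Pich*-KO means and from 3583 to 9924 in the *Pich*-WT means, while *C3* overlaps between the groups.

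The C1q genes sit side by side on the minus strand of chromosome 4, within 18675 bases from 136880129 to 136898803 on GRCm38. *C1qb* (ENSMUSG00000036905) runs from 136880129 to 136886187, *C1qc* (ENSMUSG00000036896) from 136889804 to 136893065, and *C1qa* (ENSMUSG00000036887) from 136895917 to 136898803. Promoter windows in RefSeq (GRCm38.p6), from 250 bases before to 50 bases after a gene's start, matched 6 of the 9 components. The upstream parts for *C1qb* and *C1qc*, and for *Cfp* and *C3ar1* described below, are shown because these are the abundant components whose groups stood apart. Each is given 5′ to 3′ on the strand of its gene, stops before any exon in GENCODE M21, and has in capitals every match to a motif searched on both strands.
*C1qb* (chr4:136886201-136886450, minus strand): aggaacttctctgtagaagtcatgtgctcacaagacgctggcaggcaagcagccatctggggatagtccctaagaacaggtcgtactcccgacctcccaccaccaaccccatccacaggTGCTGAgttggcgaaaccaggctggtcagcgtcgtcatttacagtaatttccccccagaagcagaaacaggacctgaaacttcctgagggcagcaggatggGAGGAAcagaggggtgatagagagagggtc
*C1qc* (chr4:136893066-136893164, minus strand): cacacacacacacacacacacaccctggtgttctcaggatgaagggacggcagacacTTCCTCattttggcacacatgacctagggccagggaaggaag
*Cfp* (chrX:20931556-20931805, minus strand): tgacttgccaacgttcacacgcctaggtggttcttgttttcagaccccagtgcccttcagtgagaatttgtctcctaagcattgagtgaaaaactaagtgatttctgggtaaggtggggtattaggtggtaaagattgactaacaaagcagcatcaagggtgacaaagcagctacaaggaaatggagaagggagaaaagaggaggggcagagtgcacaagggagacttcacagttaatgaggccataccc
*C3ar1* (chr6:122856162-122856407, minus strand): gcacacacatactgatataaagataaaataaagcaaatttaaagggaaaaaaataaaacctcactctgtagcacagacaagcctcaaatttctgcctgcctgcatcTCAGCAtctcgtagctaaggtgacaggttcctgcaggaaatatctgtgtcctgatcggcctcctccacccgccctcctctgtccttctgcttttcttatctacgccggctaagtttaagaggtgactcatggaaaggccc

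The motifs were GAGGAA, the core bound by PU.1, a transcription factor of macrophages and other myeloid cells, TGCTGA, a half-site for the MAF family of transcription factors, the interferon-stimulated response element and TTCNNNGAA, the gamma-activated site bound by STAT proteins. The PU.1 core stood in 3 of the 6 windows, once in *C1qb*, once in *C1qc* on the opposite strand, and in the *Cfp* window at 6 and 22 bases past its start, outside the part shown. It stood in 28.3% of all 32851 windows. The MAF half-site stood in 3 of the 6, *C1qb*, *C3ar1* and *C3*, and in 19.5% of all windows. No match to the interferon-stimulated response element or the gamma-activated site was found in the 6 windows, where 3.44% and 8.30% of all windows hold one. The matches shown do not overlap each other. They describe letters in these windows, not bound sites.

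Within each sample the chains kept one order but not one proportion. Per kilobase of exon, *C1qb* took 52.2% and 54.6% of the reads of the C1q genes in *Pich*-WT samples 1 and 2 and 62.9% and 66.8% in *Pich*-KO samples 1 and 2. *C1qa* took 20.5% and 19.9% in *Pich*-WT and 12.4% and 12.6% in *Pich*-KO. *C1qc* took 27.3% and 25.5% against 24.7% and 20.6%. The *C1qa* share was thus lower, and the *C1qb* share higher, in both *Pich*-KO samples than in both *Pich*-WT samples. As a share of reads with no division by length, *C1qa* was 67 of 670 in *Pich*-KO sample 1 (95% Wilson interval 7.95 to 12.5%) and 60 of 577 in sample 2 (8.16 to 13.2%). In *Pich*-WT it was 4639 of 28526 reads (15.8 to 16.7%) and 3540 of 22121 reads (15.5 to 16.5%). These intervals cover counting error only.

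**Figure D2:**
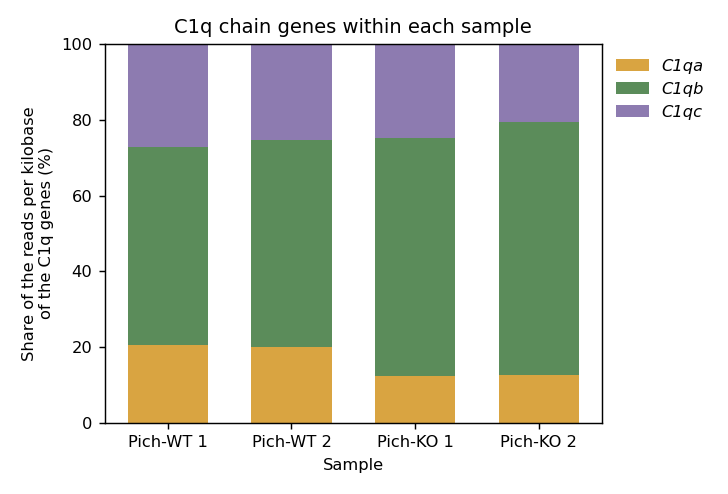
Share in percent of the reads per kilobase of *C1qa*, *C1qb* and *C1qc* taken by each gene, stacked to 100% in each LSK sample. *C1qb* is the largest part in every sample, and the *C1qa* part shrinks from 20.5% and 19.9% in *Pich*-WT to 12.4% and 12.6% in *Pich*-KO.

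*C2* and *C4b*, which encode the subunits of the classical C3-cleaving enzyme, were low in all samples. *C2* (ENSMUSG00000024371, chromosome 17, 34862604 to 34898265) had 40.4 and 27.3 normalized counts in *Pich*-KO against 52.4 and 56 in *Pich*-WT. The *Pich*-KO samples were the lower pair, with a mean ± SD of 33.8 ± 9.24 against 54.2 ± 2.57 (n = 2 each), and the log2 fold change was -0.69. Of the exonic bases of *C2*, 42.8% are shared with the overlapping gene *Gm20547* on the same strand, so its reads may be split. *C4b* (ENSMUSG00000073418, chromosome 17, 34728380 to 34743882) had 3 and 6 reads in *Pich*-KO against 9 and 18 in *Pich*-WT, or 3.27 and 6.82 against 7.03 and 18 normalized counts. The log2 fold change of *C4b* was -1.10, and it ran from -1.72 without *Pich*-WT sample 1 to -0.47 without *Pich*-WT sample 2. The pairs do not overlap, yet the highest *Pich*-KO and the lowest *Pich*-WT value nearly meet. *C4b* is a near-identical copy of *C4a*, and reads could have been divided between them.

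*C3*, the protein on which all pathways converge, was the component whose groups overlapped. *C3* (ENSMUSG00000024164, chromosome 17, 57203970 to 57228136) had 220.3 and 368 normalized counts in *Pich*-KO against 239 and 276 in *Pich*-WT. *Pich*-KO sample 1 was the lowest and *Pich*-KO sample 2 the highest of the 4. The means ± SD were 294 ± 105 and 258 ± 26.1 (n = 2 each), with a log2 fold change of 0.15. Without *Pich*-KO sample 2 the log2 fold change was -0.22.

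*Cfp* was the most abundant component in *Pich*-KO LSK cells. *Cfp* (ENSMUSG00000001128, chromosome X, 20925454 to 20931555) had 1462 and 1716 normalized counts in *Pich*-KO against 4981 and 5749 in *Pich*-WT. The pairs stood apart, with means ± SD of 1589 ± 180.3 and 5365 ± 543 (n = 2 each), so that the *Pich*-WT mean was 3.38 times the *Pich*-KO mean and the log2 fold change -1.76. The difference was smaller than that of the C1q genes on the same scale.

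*C6*, of the membrane attack complex, was near the lower end of detection. *C6* (ENSMUSG00000022181, chromosome 15, 4727175 to 4814967) had 6 and 8 reads in *Pich*-KO against 79 and 35 in *Pich*-WT, which are 6.54 and 9.09 against 61.7 and 35 normalized counts. Both *Pich*-KO samples were below both *Pich*-WT samples, which themselves differed widely, and the log2 fold change was -2.45.

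*C3ar1* (ENSMUSG00000040552, chromosome 6, 122847138 to 122856161) had 177 and 63.7 normalized counts in *Pich*-KO against 1368 and 1219 in *Pich*-WT. The *Pich*-KO pair lay lower and was spread more widely, at 120.2 ± 79.9 against 1293 ± 105 (mean ± SD, n = 2 each). The *Pich*-WT mean was 10.8 times the *Pich*-KO mean, with a log2 fold change of -3.59, which was -4.32 without *Pich*-KO sample 1 and -2.86 without *Pich*-KO sample 2.

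In all, *Pich*-KO was below *Pich*-WT with no overlap in 8 of the 9 components and overlapped in 1. Of the 32428 genes averaging 1 normalized count or more, 27.2% had non-overlapping groups with *Pich*-KO lower and 28.9% with *Pich*-KO higher, and as this contrast chose the components nothing is read from the comparison. The 9 genes together held 2420 and 2505 reads in *Pich*-KO against 37111 and 29474 in *Pich*-WT. The C1q genes made up 27.7% and 23.0% of these reads in *Pich*-KO against 76.9% and 75.1% in *Pich*-WT.

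The order of the components, compared as normalized counts per kilobase of exon, changed accordingly. In *Pich*-WT the mean levels ran from *C1qb* at 9121 through *C1qc* at 4506, *C1qa* at 3445, *Cfp* at 3091, *C3ar1* at 300.4, *C3* at 50.1 and *C2* and *C6* together, at 13.5 and 14.5 for *C2* and 17.4 and 9.84 for *C6* in samples 1 and 2, to *C4b* at 2.20. Neighbours in this order did not overlap between the 2 samples except *C2* and *C6*. *C1qb* held place 46 of 32983 genes with reads in *Pich*-WT sample 1 and place 40 of 32481 in sample 2. In *Pich*-KO the mean levels ran from *Cfp* at 915 through *C1qb* at 352, *C1qc* at 124, *C1qa* at 67.9, *C3* at 57.2, *C3ar1* at 27.9, *C2* at 8.73 and *C6* at 2.20 to *C4b* at 0.886. Here *C1qa* and *C3* overlapped, and *C1qb* held places 3070 and 3159.

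The spread between samples of one group is given as a description too, since the components were chosen with earlier results of these data known. The ratio of *Pich*-KO sample 2 to sample 1 was 0.36 for *C3ar1*, with a 95% interval of 0.261 to 0.491, and 1.67 for *C3*, with an interval of 1.398 to 2.003. Both lie outside the 5th to 95th percentile of 11794 genes with a mean of at least 50, which spans 0.544 to 1.43. The intervals are exact and cover counting error only. For *C1qa*, *C1qb*, *C1qc* and *Cfp* the same ratios ran from 0.769 to 1.17, inside that range. In *Pich*-WT the ratio of sample 2 to sample 1 was 0.936 to 1.15 for the C1q genes, *Cfp* and *C3*, and 0.891 for *C3ar1*, all inside the central range of 0.692 to 1.28. *C6*, below the mean of 50, had a ratio of 0.567 in *Pich*-WT, with an interval of 0.369 to 0.854. *C4b* and *C2*, also below that mean, had *Pich*-WT ratios of 2.56 (interval 1.09 to 6.47) and 1.07 (0.736 to 1.55).

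Macrophage marker genes moved with the C1q genes. All 12 genes of a macrophage list were lower in *Pich*-KO at an adjusted p of 0.05 (limma, Benjamini-Hochberg over all genes), and their summed normalized counts were 8582 and 7498 in *Pich*-KO against 38998 and 41131 in *Pich*-WT. None was at 0 reads in any sample. Of all 32428 genes tested, 9.6% were lower and 7.58% higher in *Pich*-KO. With one prior variance for all genes, 0 genes passed in either direction, in this list or in those below. *Csf1r*, which myeloid progenitors also carry, made up most of the *Pich*-KO sum, and without it, a choice made after its values were seen, the sums were 1313 and 1387 against 22692 and 23872. *Adgre1*, which encodes F4/80, had 273 and 205 normalized counts against 6617 and 6927. Per kilobase and relative to *Adgre1* in the same sample, *C1qb* stood at 4.23 and 5.52 in *Pich*-KO and at 4.35 and 4.37 in *Pich*-WT. In the same units *C1qa* stood at 0.834 and 1.04 against 1.71 and 1.59, *C1qc* at 1.66 and 1.70 against 2.28 and 2.04, *C3ar1* at 0.487 and 0.234 against 0.155 and 0.132, and *Cfp* at 9.998 and 15.6 against 1.40 and 1.55. The ratio of *C1qb* to this marker overlapped between the groups, those of *C1qa* and *C1qc* were lower in both *Pich*-KO samples, and those of *C3ar1* and *Cfp* were higher. These ratios hold for *Adgre1* only, whose *Pich*-WT mean was 28.4 times its *Pich*-KO mean, near the 25.9 times of *C1qb*. Across the 12 macrophage genes this fold ran from 2.51 to 88.3, so another marker would give other ratios. The antibodies that the study lists for lineage staining were against CD4, CD8, Gr-1, B220 and Ter119, with no macrophage antigen. The part of macrophage RNA in the levels of the components was not tested.

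Other cell type lists moved as well, beside the same shares over all genes of 9.6% lower and 7.58% higher. All 7 endothelial markers were lower in *Pich*-KO, with sums of 1522 and 710.5 against 33839 and 22006, as were all 6 erythroid genes, with sums of 23954 and 26361 against 140459 and 104594. *Hba-a1* made up most of each erythroid sum. Of 11 hepatocyte genes, for the cells that secrete most C3, C6 and C4, 6 were lower and 5 did not pass, with sums of 3408 and 2896 against 5458 and 4810. Of 11 monocyte and neutrophil genes, 4 were higher, 1 was lower and 6 did not pass, with sums of 66896 and 125750 against 21321 and 23033. *Mpo*, at 54647 and 90492, made up most of the *Pich*-KO sums, and the median log2 fold change of this list was 0.31. Of 9 LSK markers, the Sca-1 gene *Ly6a* was higher, *Slamf1*, *Procr*, *Mecom* and *Hlf* were lower, and 4 including *Kit* did not pass. No marker of these lists was at 0 reads. Of 5 genes for the lineage gate and for blood cells, 2 were lower and 3 did not pass, with *Cd8a* at 0 reads in a sample of each group. Their part in the component levels was not tested.

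**Figure D3:**
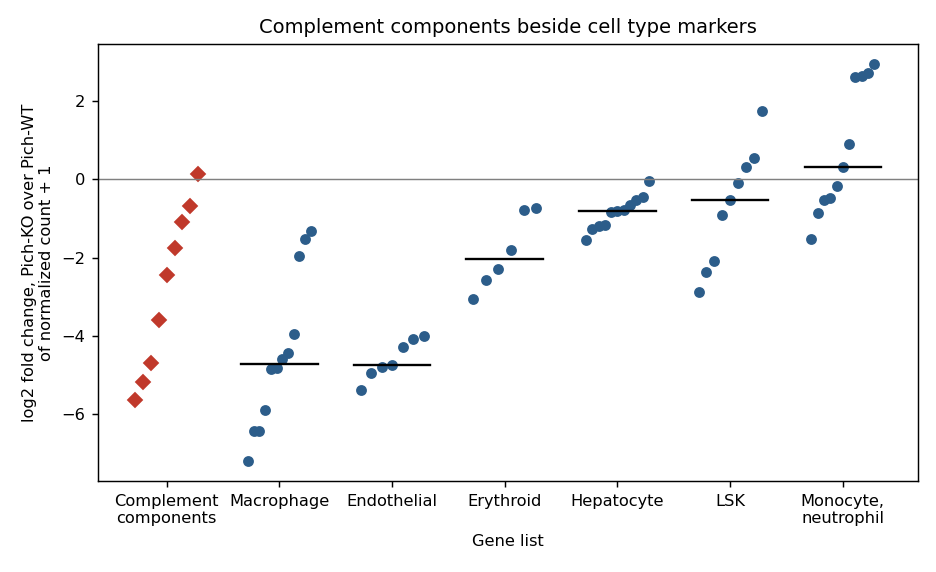
Log2 fold change of *Pich*-KO over *Pich*-WT for the 9 complement components (diamonds) and for each gene of 6 cell type marker lists (circles), with a bar at each list's median. The macrophage and endothelial medians lie at -4.71 and -4.76, the erythroid at -2.05, the hepatocyte at -0.81, the LSK at -0.53 and the monocyte and neutrophil at 0.31, and the C1q genes lie at -4.69 to -5.65.

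The 5 genes nearest to the C1q genes in their profile over the 4 samples were *Cd38*, *Dmpk*, *Npr1*, *Adgre1* and *Pltp*. Nearness was the root-mean-square distance between centred log2(normalized count + 1) profiles, over 11791 genes with a mean of at least 50, and with 4 samples in 2 groups it reflects mostly the size of the group difference. *Cd38*, an ectoenzyme that consumes NAD, was nearest at a distance of 0.16, with 113 and 88.7 normalized counts in *Pich*-KO against 3320 and 2839 in *Pich*-WT. The distances of the C1q genes from their own mean profile were 0.0790 to 0.25. *C3ar1*, *Cfp* and *C3* held places 229, 978 and 7066 in the same order.

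A list of 51 further complement genes asked whether the rest of the system moved too. Of these, 1 was higher and 13 were lower in *Pich*-KO at an adjusted p of 0.05, and 37 did not pass (limma on log2(normalized count + 1), adjusted over 32428 genes). Of all genes tested, 7.58% were higher and 9.6% lower, 17.2% in all. The median log2 fold change of the list was -0.24, beside 0.02 over all genes. Most of the list was scarcely detected, with a mean of 50 or more in 16 of the 51 genes. The calls draw on a variance estimated over many genes, since an exact two-sided permutation test of 2 samples against 2 cannot go below p = 0.333. With one prior variance for all genes, and without *Pich*-KO sample 2, *Pich*-WT sample 1 or *Pich*-WT sample 2, none of the 51 passed, while without *Pich*-KO sample 1 the counts were 1 and 10. At an unadjusted p under 0.05 those 4 fits with no call had 2 or 3 genes higher and 12 to 17 lower, and edgeR's test had 1 higher and 15 lower of 32 tested. At an adjusted p of 0.05, edgeR's count was 1 higher and 14 lower.

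**Figure D4:**
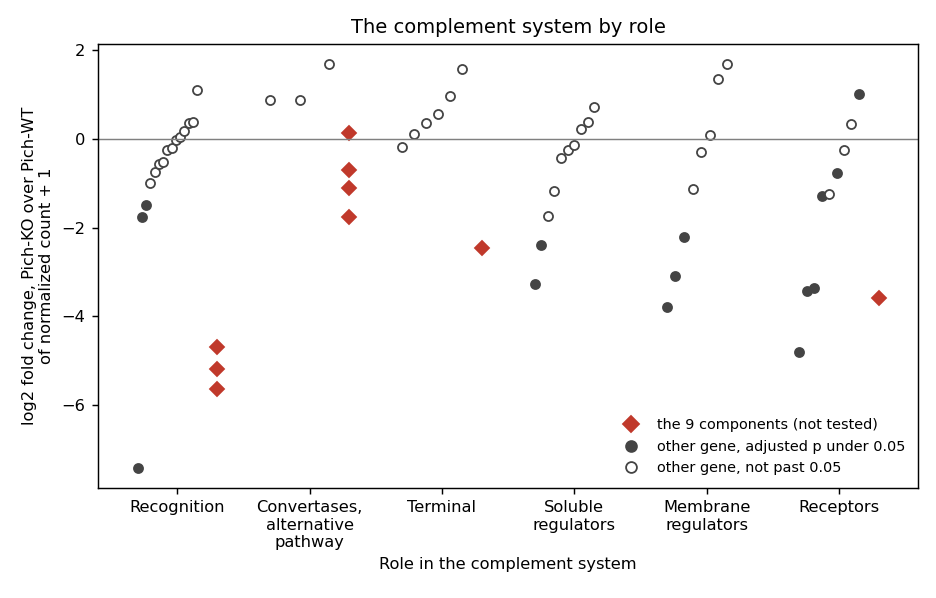
Log2 fold change of *Pich*-KO over *Pich*-WT by role in the complement system, with diamonds for the 9 components, which were not tested, and circles for the 51 other genes, filled where the limma adjusted p is under 0.05. The lowest filled circle is *Fcna* at -7.41 and the filled circle above 0 is *C1qbp* at 1.02.

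Among 15 recognition genes 3 were lower and 12 did not pass. *Fcna*, which encodes the lectin pathway molecule ficolin A of macrophages, had 10.9 and 29.6 normalized counts in *Pich*-KO against 2881 and 3647 in *Pich*-WT (log2 fold change -7.41 ± 0.40, SE, with limma adjusted p = 4.0e-05). Its *Pich*-WT mean was 161 times its *Pich*-KO mean, and its log2 fold change was -6.73 without *Pich*-KO sample 1 and -8.09 without *Pich*-KO sample 2. *C1ra* and *Masp1*, proteases of C1 and of the lectin pathway named after their values were seen, were the others, with log2 fold changes of -1.75 and -1.48. The group means of *C1ra*, whose close copy *C1rb* could share its reads, were 16.7 and 58.4, and those of *Masp1* were 18.9 and 55.0.

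None of *C4a*, *Cfb* and *Cfd* of the convertases passed, nor any of the 6 other terminal genes. *Cfb*, factor B of the alternative pathway, had 14.2 and 14.8 normalized counts in *Pich*-KO against 5.47 and 10 in *Pich*-WT (adjusted p = 0.355, limma). *C4a* had 6.54 and 13.6 against 3.13 and 7. At an unadjusted p under 0.05 (limma), 2 of the 51 genes were higher, beside 4427 of all 32428 genes tested. Those were *C1qbp* and *Cd46*, of the receptor and membrane regulator lists, and no convertase or terminal gene was among them.

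Of 10 soluble regulators 2 were lower. *Clu*, the clusterin gene, had 96.0 and 95.5 normalized counts in *Pich*-KO against 691 and 374 in *Pich*-WT (log2 fold change -2.40, limma adjusted p = 0.00108). Without *Pich*-KO sample 1 the adjusted p of *Clu* was 0.104 (limma). *Serping1*, the C1 inhibitor gene, did not pass and overlapped, with 26.2 and 7.96 against 18.8 and 8.

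Of 8 membrane regulators, which shield the cell's own surface, 3 were lower. *Cd55*, which speeds the decay of convertases, had 253 and 186 normalized counts in *Pich*-KO against 1149 and 892 in *Pich*-WT (log2 fold change -2.22, limma adjusted p = 0.000337). *Cd59a*, which blocks the pore, had 167 and 76.2 against 1043 and 882 (log2 fold change -3.08, limma adjusted p = 0.000645). *Susd4* had 9.82 and 5.68 against 107 and 126 (log2 fold change -3.78, limma adjusted p = 0.000611). *Cr1l*, the rodent regulator Crry, had 1352 and 1410 against 1686 and 1714 and did not pass (log2 fold change -0.30, adjusted p = 0.113, limma).

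Of 9 receptor genes 5 were lower and 1 was higher. *C5ar1*, the C5a receptor of myeloid cells, had 66.5 and 64.8 normalized counts in *Pich*-KO against 740.1 and 637 in *Pich*-WT (log2 fold change -3.37 ± 0.20, SE, with limma adjusted p = 5.4e-05). The integrin chains of complement receptors 3 and 4 were all lower, with log2 fold changes of -3.42 for *Itgax*, -1.28 for *Itgam* and -0.77 for *Itgb2* (adjusted p = 0.00132, 0.016 and 0.00194, limma). *Itgax*, which encodes CD11c, had 85.1 and 29.6 normalized counts in *Pich*-KO against 599 and 499 in *Pich*-WT, and its log2 fold change was -4.16 without *Pich*-KO sample 1 and -2.67 without *Pich*-KO sample 2. *Itgam*, which encodes CD11b, had an adjusted p of 0.0526 (limma) without a filter on the mean. *Vsig4*, the complement receptor of tissue macrophages, had 2 and 0 reads in *Pich*-KO against 71 and 43 in *Pich*-WT, so that against a floor of 3 reads per library the *Pich*-WT mean was at least 14.7-fold higher. *C1qbp*, whose product binds C1q in vitro but resides mainly in mitochondria, was the gene that rose, from 3835 ± 226 to 7789 ± 488 normalized counts (SD, n = 2 each) (log2 fold change 1.02 ± 0.09, SE, with limma adjusted p = 0.000272).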

How the data were processed

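RNA of 4 LSK samples was sequenced from libraries made with an Illumina TruSeq kit. The submitters' processing notes name Bowtie 0.12.2 and the builds mm8 and mm9, whereas 97.8% of 39131 genes matched to GENCODE M21 have its GRCm38 start and end, so GRCm38 coordinates are given. The counter is not given in the sources used here. The deposited values are a signal that the authors made by dividing the reads on each gene by one size factor per sample. Their group means, fold changes and p-values were not used. Gene lengths are exon lengths from the deposited table.

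Dividing by the step between low values gave whole reads for 100% of values (tolerance 0.001). Groups were compared with limma 3.58.1 (R 4.3.3) on log2(normalized count + 1) over genes averaging 1 or more, with a variance trend and Benjamini-Hochberg adjustment. edgeR 4.0.16 and DESeq2 1.42.0 ran on the recovered reads, and all were tested on simulated data. Other alternatives were a pseudocount of 0.1, no filter, no trend, a replicate block and leaving out each sample. Genes named beyond the 9 components are up to 12 per direction of the further list with a mean of at least 50, an adjusted p under 0.05 and no overlap, 9 fixed names, and the 5 nearest profiles. The components and lists were chosen with earlier results of these data known. Some genes that this rule names are not reported here.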

Additional observations from a re-analysis of the deposited data

How the results depend on the processing

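With limma and one prior variance for all genes, 0 genes were higher and 0 lower, although 3343 and 4034 had an unadjusted p under 0.05, and of the 51 further complement genes 0 and 0 passed. With 1 sample left out, the lone sample of a group is assumed to vary like the other group. Over these 4 fits (limma), 0 to 548 genes were higher and 0 to 1193 lower, and of the further complement genes 0 to 1 and 0 to 10. Only the fit without *Pich*-KO sample 1 had calls, and the others had 2638 to 3521 higher and 2951 to 4051 lower at an unadjusted p under 0.05. *Serping1*, never past the threshold, ranged from -0.57 to 1.03 with a sample left out, with its sign changed without *Pich*-KO sample 1 and, at -0.34, without *Pich*-WT sample 2. The cause was not tested. The labels tie the replicate numbers to no litter, batch or day, so the main fit did not pair the samples. Deviations of samples that share a number had a correlation of 0.0117 across 11794 genes. With 1 difference per group, this correlation cannot exclude a pairing. With the replicate block 2 further complement genes were higher and 14 lower. Under the other fits 1 was higher and 12 to 14 lower. With a sample left out, log2 fold changes ran from -0.22 to 0.52 for *C3*, which changed sign without *Pich*-KO sample 2, from -1.72 to -0.47 for *C4b* and from -4.32 to -2.86 for *C3ar1*. *C4b* was not tested by edgeR. With no division by length, the mean shares of *C1qa*, *C1qb* and *C1qc* were 10.2%, 55.4% and 34.4% in *Pich*-KO against 16.1%, 44.7% and 39.2% in *Pich*-WT. Depth limits *C4b* and *C6*, with 3 to 18 and 6 to 79 reads per sample.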

Other observations

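*Fcnb*, which encodes the ficolin of monocytes and neutrophils and is the counterpart of *Fcna*, had 112 and 435 normalized counts in *Pich*-KO against 221 and 309 in *Pich*-WT. It did not pass (adjusted p = 0.828, limma), and *Pich*-KO sample 2 was the highest and *Pich*-KO sample 1 the lowest of the 4. The late granule genes showed the same order within *Pich*-KO. *S100a8* had 556 and 3918 normalized counts in *Pich*-KO samples 1 and 2 against 1173 and 1215 in *Pich*-WT, and *Ltf* had 154 and 739 against 639 and 588. The early granule genes *Elane*, *Mpo*, *Prtn3* and *Ctsg* were also higher in *Pich*-KO sample 2 than in *Pich*-KO sample 1. *Elane* had 729.7 and 3387 against 722 and 979, and did not pass (adjusted p = 0.374, limma). *Mpo* was higher in both *Pich*-KO samples, with 54647 and 90492 against 10351 and 12533 (log2 fold change 2.63, adjusted p = 0.000151, limma), and *Prtn3* and *Ctsg* passed in the same direction.

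*Cd93*, once described as a C1q receptor and carried by stem and progenitor cells, had 1611 and 857 normalized counts in *Pich*-KO against 1540 and 1262 in *Pich*-WT, and did not pass (adjusted p = 0.615, limma). The genes of these paragraphs were picked after their values were seen.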
